A study of Mus musculus with 77 samples.

Results

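The mRNAs described here encode the proteins of the cytosolic ribosome in mouse liver. A gene was a member when its symbol began with Rpl (large subunit) or Rps (small subunit) and a digit, without pseudogenes, kinases of the Rps6k family and the paralogs and binding proteins with suffixed symbols. Of 340 symbols that began this way, 246 named pseudogenes and 75 fitted the rule. A minimum of 10 coding-sequence counts in at least 12 of the 24 RNA libraries left 63 members, 35 of the large and 28 of the small subunit, out of 25266 genes in the files. Among the members nearest the limit, Rpl28 reached the minimum in 13 RNA libraries and Rpl10a in 16, whereas Rpl36a reached it in 11 and was left out. The other genes left out were Rpl10, Rpl12, Rpl17, Rpl21, Rpl29, Rpl5, Rpl9, Rps13, Rps27, Rps3a2 and Rps3a3. Rpl5, a 5S rRNA partner, had 0 counts in all RNA and footprint libraries, and Rpl10, which joins the large subunit late in its assembly, had 2 RNA counts over the 24 libraries. How reads that also match pseudogenes were counted is not given in the sources used here, so these low counts do not show that the mRNAs were absent.

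Livers came from male C57BL/6J mice aged 12 to 24 weeks, kept under 12 h of light a day with free access to food. Whole-body knockouts of Aco1 (allele Aco1 tm1.1Mwh, encoding IRP1) and of Ireb2 (allele Ireb2 tm1.2Mwh, encoding IRP2), the iron regulatory proteins, were each compared with +/+ mice of the same line. Mice were taken at ZT5, in the light phase, or at ZT12, the onset of darkness, which gave 8 groups of 3 mice: Aco1+/+, Aco1-/-, Ireb2+/+ and Ireb2-/- at either time. From every liver, ribosome-protected footprints (RPF) and total RNA were sequenced, and the translation efficiency (TE) of a gene in a liver was the log2 of RPF over RNA, both as counts scaled to library size (CPM) with upper-quartile factors.

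Ribosomal protein mRNAs are the classical members of the TOP family, whose transcripts start with a cytosine followed by a run of pyrimidines. Their translation is known to depend on nutrient signalling through the kinase complex mTORC1 and on the TOP-binding protein LARP1. In liver, where feeding sets a daily cycle of growth signals, ribosomal protein mRNAs are known to be recruited to polysomes at some times of day and released at others. Each ribosome holds a single copy of most of these proteins, so that their synthesis is usually considered as a group.

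The run of pyrimidines can be seen in the RefSeq sequence around annotated transcription starts (build GRCm38.p6, 15 bases before the start and 15 from it, so that base 16 is the first transcribed one). The windows shown are those of members with long runs, of Rps12, whose run is cut by the end of the window, and of Rpl26, which has no long run, written 5′ to 3′ on the strand of the gene, with the longest run of at least 8 pyrimidines in capitals.
Rps6, chr4:86857353-86857382, minus strand: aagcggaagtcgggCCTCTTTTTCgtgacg
Rps10, chr17:27635230-27635259, minus strand: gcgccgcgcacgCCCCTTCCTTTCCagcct
Rpl14, chr9:120571502-120571531, plus strand: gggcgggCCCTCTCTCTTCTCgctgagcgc
Rpl15, chr14:18270972-18271001, minus strand: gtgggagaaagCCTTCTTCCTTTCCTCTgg
Rpl7a, chr2:26910792-26910821, plus strand: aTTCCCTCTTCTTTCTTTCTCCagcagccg
Rpl38, chr11:114668565-114668594, plus strand: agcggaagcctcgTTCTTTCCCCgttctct
Rps12, chr10:23787195-23787224, minus strand: taccgtcatgcggccaccgccggccttttc
Rpl26, chr11:68901551-68901580, plus strand: ctcgcggcaacttacagaaccggaagtcgc
The run was 21 bases long in Rpl7a and 17 in Rpl15, while the longest run inside the window was 3 bases in Rpl26. In Rps12, 7 bases of a run of 11 lay inside the window, so that it counted as a window without one. Windows were found for 57 starts of 47 members, and 24 of these starts (42.1%) held a run of 8 or more on the strand of the gene. Of all 32851 starts, 12.0% did. With runs that touched the window taken at full length, 27 member starts (47.4%) and 17.6% of all starts held one. For runs inside the window on the opposite strand, the shares were 5.26% of member starts and 13.2% of all starts. These letters describe annotated starts and not the starts used in these livers.

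Coding-sequence counts ranged from 852293 to 3993492 in the RNA libraries and from 2448915 to 13439600 in the RPF libraries. Footprints on Aco1 averaged 79.8 to 110 CPM in the Aco1-/- groups and 410 to 561 CPM in the Aco1+/+ groups, and footprints on Ireb2 averaged 37.2 CPM in both Ireb2-/- groups and 73.8 to 74.7 CPM in the Ireb2+/+ groups. Ireb2 RNA averaged 142 CPM in Ireb2-/- and 114.7 CPM in Ireb2+/+ livers at ZT5, and 110 CPM against 122.6 CPM at ZT12, with overlapping ranges at both times. Hepatocyte markers (Alb, Apoa1, Ttr, Trf, Serpina1c) summed to 99510 to 160800 CPM of RNA per library, Kupffer cell markers to 252.7 to 429 CPM, endothelial to 302.3 to 466.9 CPM, stellate to 329 to 550.6 CPM, erythroid to 69.9 to 251 CPM, cholangiocyte (Krt19, Epcam, Sox9) to 1.09 to 14.2 CPM, and lymphoid markers (Ptprc, Cd79a, Ms4a1) to 0 to 2.1 CPM. Over all RNA libraries Ptprc had 0 counts, Cd79a 33 and Ms4a1 31. In whole liver, fewer cells of a type and less RNA per cell cannot be told apart.

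The members took a small and fairly even share of the coding RNA and a much more variable share of the footprints. Their summed share of coding RNA counts lay between 0.256% and 0.422% over the 24 livers, and their share of footprints between 0.0710% and 0.312%. A median of 36.2% of the members' RNA counts per library fell in the coding column, beside 58.7% over all genes, and with all count columns summed the members' mean RNA share was 0.590% in place of 0.344%. The lowest footprint share belonged to an Ireb2+/+ liver at ZT5 and the highest to an Ireb2+/+ liver at ZT12. In Ireb2+/+ mice the footprint share was 0.0981% ± 0.0251 at ZT5 and 0.277% ± 0.0420 at ZT12 (SD, n = 3), with no overlap between the times. In Ireb2-/- mice it was 0.111% ± 0.0239 and 0.175% ± 0.0192, again without overlap. In Aco1+/+ mice the corresponding shares were 0.192% ± 0.0366 and 0.193% ± 0.0475, and in Aco1-/- mice 0.172% ± 0.0437 and 0.210% ± 0.0264, with overlapping ranges in both genotypes. The RNA share in Ireb2+/+ mice was 0.303% ± 0.0410 at ZT5 and 0.349% ± 0.0189 at ZT12, from 0.256% to 0.327% and from 0.329% to 0.366%, so that the times did not overlap in RNA either. In Ireb2-/- mice it was 0.334% ± 0.0042 and 0.324% ± 0.0092, in Aco1+/+ mice 0.392% ± 0.0505 and 0.346% ± 0.0173, and in Aco1-/- mice 0.375% ± 0.0304 and 0.331% ± 0.0287, all with overlapping ranges.

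**Figure D1:**
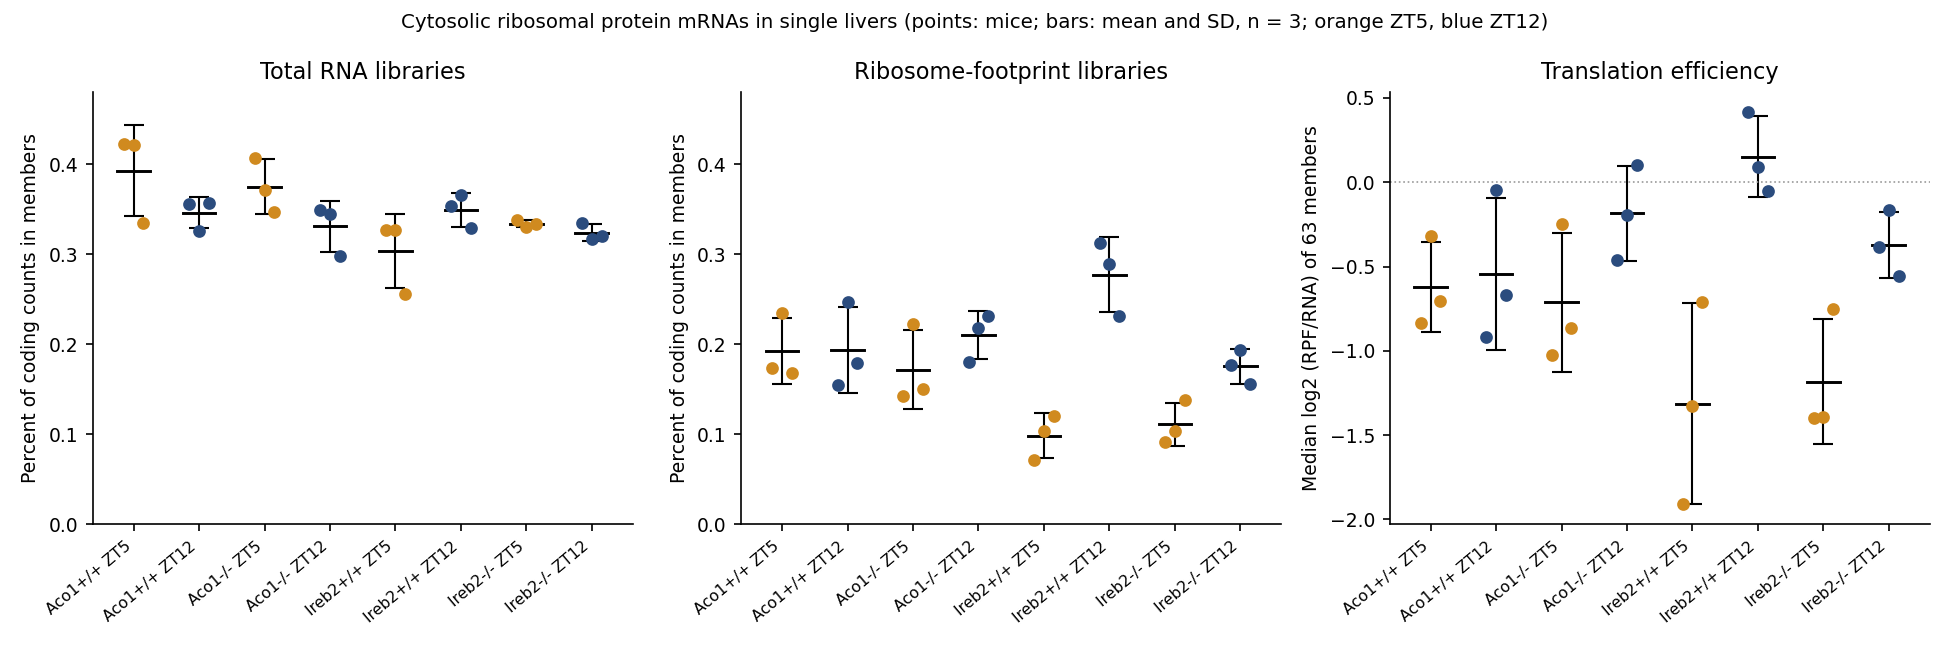
Share of coding counts that fell in the 63 members in RNA and RPF libraries (percent) and the median log2 (RPF/RNA) of the members, for each liver in the 8 groups (points, mice; bars, mean and SD, n = 3). The 3 Ireb2+/+ livers at ZT12 have the highest group mean of TE (0.15) and those at ZT5 the lowest (-1.31).

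Across single livers, the median log2 TE of the members was below the median over all tested genes in most livers. It was -0.83, -0.32 and -0.70 in replicates 1 to 3 of Aco1+/+ at ZT5 and -0.92, -0.04 and -0.67 at ZT12. In Aco1-/- it was -1.02, -0.25 and -0.86 at ZT5 and -0.46, -0.19 and 0.10 at ZT12. Both genotypes of the Aco1 line thus had overlapping ranges at the 2 times. In Ireb2+/+ it was -1.91, -1.32 and -0.71 at ZT5 and 0.42, 0.09 and -0.05 at ZT12, and in Ireb2-/- it was -1.40, -1.39 and -0.75 at ZT5 and -0.39, -0.17 and -0.56 at ZT12. In the Ireb2 line every ZT12 liver was above every ZT5 liver of its genotype. The median over all tested genes stayed between 0.02 and 0.12 in the same livers.

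Gene by gene, 13 of the 63 members had a mean log2 TE above 0 over the 24 livers, and the median member stood at -0.58, beside 0.11 for the 10696 genes tested. The 3 highest were Rpl38 (0.99 ± 0.47, SD over 24 livers), a large-subunit protein known for its part in the translation of Hox mRNAs, Rps28 (0.87 ± 0.93) and Rpl24 (0.87 ± 0.62), which lies at the subunit interface. Among the lowest were Rps12 (-3.39 ± 0.97) and Rpl19 (-2.68 ± 1.39). Rpl38 was above 0 in every liver, from 0.11 to 1.82, and Rps12 was below 0 in every liver. Since TE divides 2 counts that share the length of the gene, its level can be set beside that of another gene, but the handling of reads that also match pseudogenes is not given in the sources used here, and levels of genes with many pseudogenes are uncertain. Across the 63 members, mean TE and the number of named pseudogenes had a Pearson r of -0.35 and a Spearman rho of -0.20, and mean TE and log2 mean RNA counts an r of -0.17. These points share libraries and annotation.

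**Figure D2:**
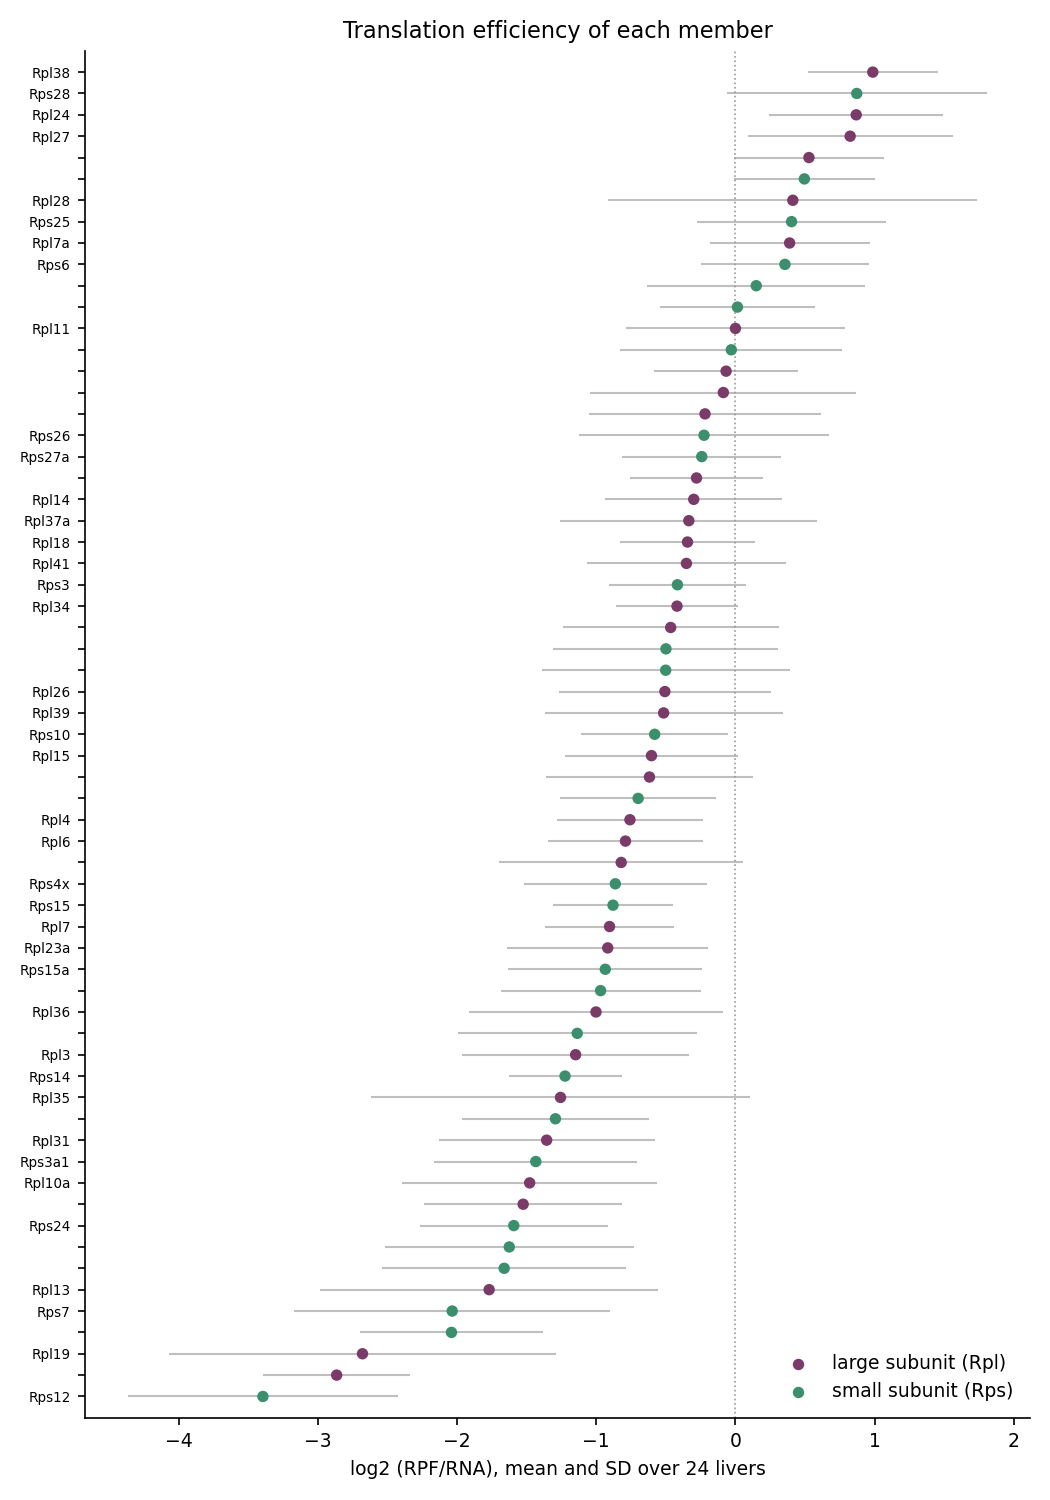
Mean log2 (RPF/RNA) of each of the 63 members over 24 livers, with the SD as bars, ordered by mean and coloured by subunit; members named in the text are labelled. The means run from 0.99 (Rpl38) to -3.39 (Rps12), and 13 of 63 lie above 0.

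The SD of log2 TE over the 24 livers was smallest for Rps14 (0.41), a small-subunit protein linked to the anaemia of the 5q- syndrome, Rps15 (0.43) and Rpl34 (0.44). It was largest for Rpl19 (1.39), Rpl35 (1.36) and Rpl28 (1.32), with mean RNA counts of 29.0, 19.7 and 11.0 per library, beside 301 for Rps14, 201 for Rps15 and 86.7 for Rpl34. Rpl19 had 0 footprint counts in an Aco1-/- liver at ZT5 and Rpl35 had 0 RNA counts in an Ireb2+/+ liver at ZT5. Over all members the SD and log2 mean RNA counts had a Pearson r of -0.53, and the median SD was 0.72, beside 0.39 for all genes tested.

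The order of the members was similar in separate groups. The group means of log2 TE in Aco1+/+ and Ireb2+/+ livers had a Pearson r of 0.86 at ZT5 and 0.85 at ZT12 across the 63 genes. Biases of sequence or counting could be shared by all libraries, and their part was not tested. Large-subunit members had a higher median TE than small-subunit members (-0.51 against -0.78 as medians of gene means). In single livers, the difference of the large from the small subunit in median TE averaged 0.25 on the log2 scale. It was smaller in Ireb2+/+ at ZT5 (-0.05 ± 0.04, SD, n = 3) than the 0.33 ± 0.18 of Ireb2+/+ at ZT12. With counts pooled within each subunit, the values were 0.09 ± 0.05 at ZT5 and 0.20 ± 0.05 at ZT12. The difference of medians was -0.10, 0.45 and 0.65 in the 3 Aco1-/- livers at ZT12, so that it also spread widely within a group. With all count columns summed in place of the coding one, the mean difference was -0.10, so that the order of the subunits changed with the columns counted.

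The comparison of ZT12 with ZT5 asked when the members were translated most. Ireb2+/+ livers showed the most members called of the 4 combinations of line and genotype. In Ireb2+/+ mice, 30 of 63 members rose in TE at ZT12 and none fell (edgeR quasi-likelihood test, adjusted over 10696 genes), beside 0.533% of all genes called and 0.496% that rose. The 30 comprised 18 of 35 large-subunit and 12 of 28 small-subunit members. The median log2 difference in TE was 1.46 (1.52 large, 1.42 small) and all 63 differences were positive. TE was higher in every ZT12 than in every ZT5 liver for 46 of 63 members, beside 5.94% of all genes. In Ireb2+/+ livers the summed RNA and footprint levels of the 7 marker lists above overlapped between the times. Among single markers, the hepatocyte marker Serpina1c rose in footprints at ZT12 (0.58 ± 0.16, adjusted p = 0.0359). Its part in the members' differences was not tested.

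Rpl26, a large-subunit protein that also binds p53 mRNA, had log2 TE of -1.90, -1.50 and -1.08 in the ZT5 livers and of 0.70, 0.84 and -0.05 in the ZT12 livers of Ireb2+/+ mice. The ranges did not overlap, and TE rose by 2.09 ± 0.24 on the log2 scale (SE, adjusted p = 5.59e-07). Its footprints were 7.40, 9.91 and 10.3 CPM at ZT5 and 49.7, 43.8 and 27.9 CPM at ZT12, whereas its RNA was 27.9, 28.2 and 21.9 CPM and then 30.6, 24.5 and 29.0 CPM. Of the 2 quantities, the footprints of Rpl26 passed the test (2.11 ± 0.22, adjusted p = 2.6e-05) and its RNA did not (0.08 ± 0.18, adjusted p = 0.887). With all count columns summed, the TE call of Rpl26 was lost (1.80, adjusted p = 0.0948).

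Rpl14, a large-subunit protein, had TE of -1.40, -1.03 and -1.62 at ZT5 and of 0.72, 0.40 and 0.16 at ZT12 in Ireb2+/+ livers, a rise of 1.81 ± 0.23 (adjusted p = 1.04e-06). Rps7, a small-subunit protein that can bind MDM2, had -3.36, -2.74 and -2.60 at ZT5 and -0.15, -0.42 and -0.85 at ZT12, and rose by 2.55 ± 0.33 (adjusted p = 1.04e-06). For both mRNAs the livers of the 2 times were separate, although Rps7 started from a lower TE than Rpl14 in every ZT5 liver. The largest fitted differences were those of Rpl28 (3.41) and Rpl13 (3.01), both with few footprints at ZT5 (0.98, 1.5 and 1.82 CPM for Rpl28, and 0.70, 1.5 and 0.39 CPM for Rpl13).

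Members known for other roles did not all pass the test. Rps27a, made as a fusion with ubiquitin, had TE of -1.06, -1.03 and -0.48 at ZT5 and of 1.10, 0.41 and 0.43 at ZT12, and rose by 1.55 ± 0.28 (adjusted p = 9.21e-04). Rps14 moved from -1.94, -1.37 and -1.15 to -0.59, -0.55 and -0.76, which was the smallest called rise (0.89 ± 0.15, adjusted p = 3.04e-04). The call of Rps27a was lost with all count columns (adjusted p = 0.301) and that of Rps14 with libraries not paired by mouse (adjusted p = 0.08). Rps6, the substrate of S6 kinase, gave 1.18 ± 0.31 (adjusted p = 0.0653), Rpl3, near the peptidyl transferase centre, 1.22 ± 0.33 (adjusted p = 0.0927) and Rps3, at the mRNA entry channel, 1.03 ± 0.26 (adjusted p = 0.244). Rpl11, another 5S rRNA partner that binds MDM2, gave 1.68 ± 0.57 (adjusted p = 0.438), Rpl38 0.84 ± 0.32 (adjusted p = 0.375) and Rpl41, the smallest ribosomal protein, 2.11 ± 0.43 (adjusted p = 0.131). For Rpl11 a ZT5 liver stood apart, with TE of 1.32 beside -2.0 and -1.19 in the others, and RNA of 5.19 CPM beside 28.7 and 28.2 CPM.

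That liver, replicate 3 of Ireb2+/+ at ZT5, also held the 0 RNA count of Rpl35, the smallest Rps12 RNA of its group (9.23 CPM beside 35.4 and 38.7 CPM) and the smallest RNA share of the members (0.256%). Without it, 47 members were called in TE in place of 30, and the median difference was 1.69. Leaving out any of the other 5 Ireb2+/+ livers gave at least 22 called members and a median of at least 1.13. The share of all genes called in these fits is not given here, so the counts show only how the calls moved.

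In the RNA of Ireb2+/+ livers no member passed the test between the times (edgeR and DESeq2 both 0), beside 2.29% of all genes called. An unadjusted p under 0.05 was found for 11 members (17.5%), all higher at ZT12, beside 15.1% of all genes over both directions. RNA was higher in every ZT12 liver for 10 of 63 members, beside 8.78% of all genes. It was lower in every ZT12 liver for 0 members, beside 10.4% of all genes. The median RNA difference of the members was 0.27, with 57 of 63 positive. The smallest p values belonged to Rps15 (0.46 ± 0.14, adjusted p = 0.0962) and Rps6 (0.73 ± 0.24, adjusted p = 0.113). In the footprints, 60 of 63 rose, beside 7.53% of all genes called and 3.63% that rose, with a median of 1.65. Rpl23a, near the exit of the peptide tunnel, rose from 4.05, 5.22 and 5.47 CPM to 20.2, 22.3 and 17.6 CPM (2.00 ± 0.20, adjusted p = 6.11e-06). Among the 3 not called were Rpl18 and Rpl19 (adjusted p = 0.106 and 0.543).

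**Figure D3:**
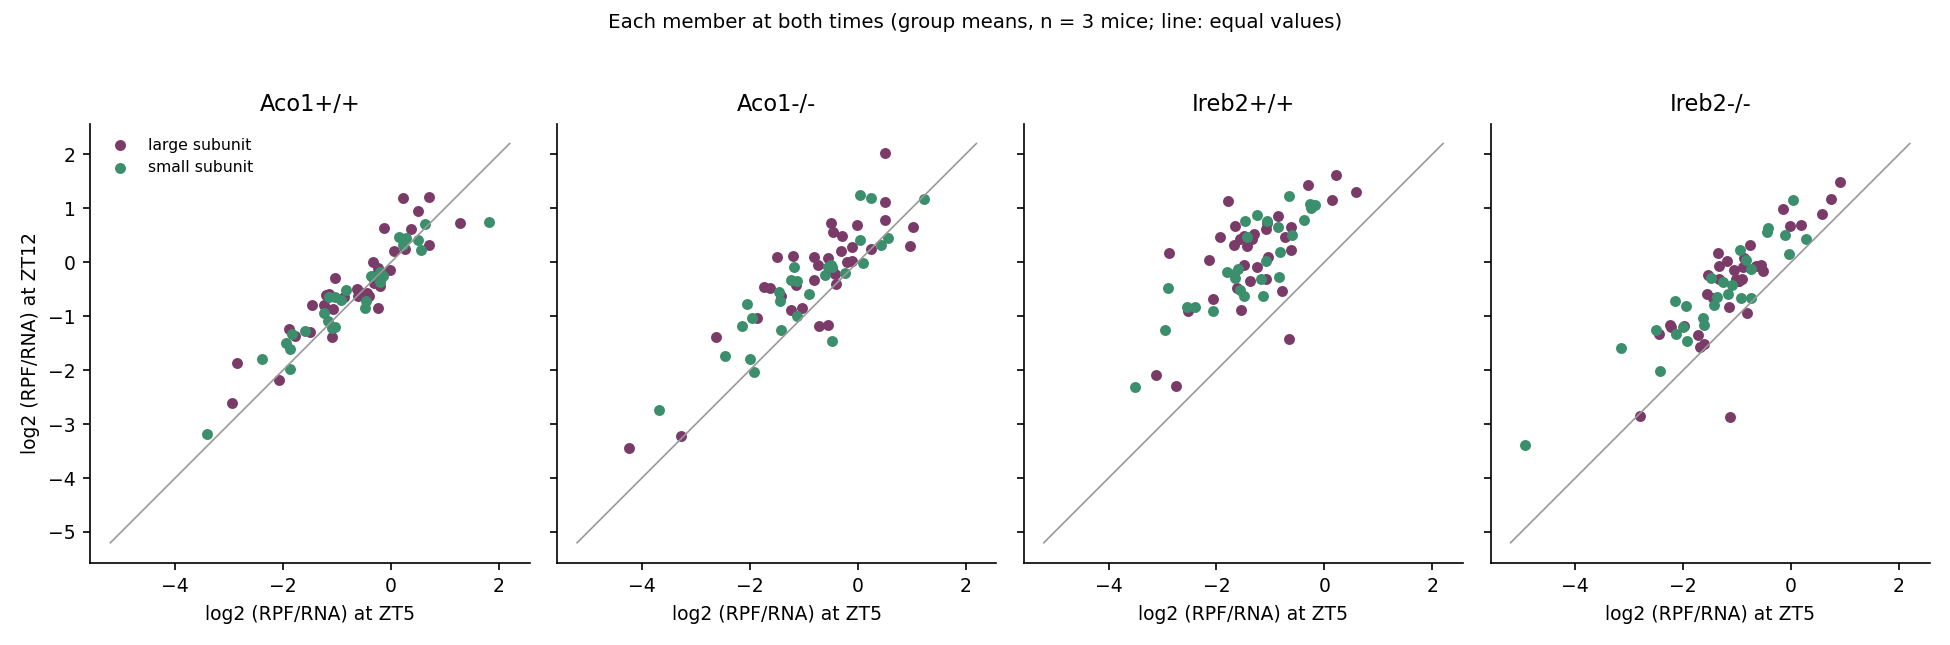
Group mean log2 (RPF/RNA) of each member at ZT5 (x axis) and ZT12 (y axis) in the 4 combinations of mouse line and genotype (n = 3 mice per time). The diagonal marks equal values, and colours mark subunits. Most members lie above the line in Ireb2+/+ livers, where the median fitted difference was 1.46, and near the line in Aco1+/+ livers, where it was 0.19.

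In the other 3 combinations of line and genotype the median difference between the times was smaller, and the tests of those differences between lines and genotypes follow. In Ireb2-/- livers no member passed the test in TE (edgeR and DESeq2 both 0), beside 0.00935% of all genes called. An unadjusted p under 0.05 was found for 31 members, all higher at ZT12, beside 4.52% of all genes, and the median difference was 0.69. TE was higher in every ZT12 liver for 36 of 63 members, beside 5.99% of all genes. Rpl39, a very short large-subunit protein, had TE of -2.14, -1.40 and -0.51 at ZT5 and of 0.32, 0.35 and -0.15 at ZT12 (1.39 ± 0.32, adjusted p = 0.462), and Rpl7a -0.58, -0.52 and 0.66 and then 1.07, 1.14 and 0.74 (1.10 ± 0.28, adjusted p = 0.462). When only the 6 Ireb2-/- mice entered the fit, 17 members were called, beside 0.383% of all genes.

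In the footprints of Ireb2-/- livers 7 members rose at ZT12, namely Rpl26, Rpl34, Rpl39, Rpl7a, Rps12, Rps25 and Rps3a1, beside 5.73% of all genes called and 2.67% that rose. The count was 24 with DESeq2, beside 6.43% of all genes called, and 22 when only the 6 Ireb2-/- mice entered the fit, beside 5.4%. Rpl26 rose from 11.8, 11.0 and 15.9 CPM to 22.3, 31.9 and 24.1 CPM (1.02 ± 0.23, adjusted p = 0.0144). Rpl39 rose from 3.56, 5.99 and 10.6 CPM to 18.7, 19.5 and 15.3 CPM (1.38 ± 0.31, adjusted p = 0.0166). The 7 became 0 without replicate 2 of either time and 1 without replicate 1 of either time. They were 16 without replicate 3 of ZT5 and 11 without replicate 3 of ZT12. For these fits with 1 mouse left out, the share of all genes called is not given here. Both named members had higher footprints in every ZT12 liver than in every ZT5 liver of their genotype. Marker lists also separated the times in the footprints of Ireb2-/- livers. Cholangiocyte markers summed to 14.7 to 19.2 CPM at ZT5 and 5.26 to 11.0 CPM at ZT12, with Epcam called (-1.88 ± 0.52, adjusted p = 0.0376), erythroid markers to 154.1 to 205.3 and 110.1 to 147.2 CPM, endothelial markers to 446.9 to 497.5 and 422.5 to 430.8 CPM, and hepatocyte markers to 163800 to 213100 and 217000 to 250800 CPM. In RNA, endothelial markers (398.9 to 466.9 and 349.2 to 361.5 CPM) and lymphoid markers (1.097 to 2.101 and 0.416 to 1.089 CPM) did. The part of these cells in the members' differences was not tested. In RNA no member of the Ireb2-/- groups passed the test (edgeR and DESeq2 both 0), beside 2.77% of all genes called, and 2 (3.17%) had an unadjusted p under 0.05, beside 14.6% of all genes. Among the lowest p values was that of Rps24 (-0.40 ± 0.18, adjusted p = 0.277).

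In Aco1-/- livers 2 members rose in TE at ZT12, beside 0.15% of all genes called and 0.0374% that rose. Rpl3 moved from -1.98, -1.35 and -1.18 to 0.02, 0.22 and 0.07 (1.63 ± 0.28, adjusted p = 0.00448), and Rpl6 from -1.15, -1.21 and -1.23 to 0.20, 0.57 and -0.40 (1.33 ± 0.26, adjusted p = 0.0137). Neither overlapped between the times. The median difference was 0.48 (0.54 large, 0.45 small) and 0.73 without replicate 2 of ZT5, 55 of 63 were positive and 14 were higher in every ZT12 liver, beside 6.72% of all genes. The count of 2 members fell to 0 without replicate 1 of ZT5 and to 1 without replicate 3 of ZT5 or replicate 2 of ZT12. It was 6 without replicate 3 of ZT12, and the share of all genes called in these fits is not given here. Rpl3 lost its call only without replicate 1 of ZT5 (adjusted p = 0.116), and Rpl6 without any of the 6 mice except replicate 3 of ZT12 (adjusted p = 0.062 to 0.116). Both calls were also lost with the first sequencing run alone and with libraries not paired by mouse (adjusted p = 0.116 to 0.414).

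Footprints of 11 members rose in Aco1-/- livers, beside 12.1% of all genes called and 5.31% that rose. Rps6 rose from 11.2, 14.8 and 11.7 CPM to 28.9, 42.0 and 31.1 CPM (1.45 ± 0.24, adjusted p = 9.19e-04), and Rpl6 from 12.4, 12.4 and 11.1 CPM to 34.0, 38.5 and 21.0 CPM (1.38 ± 0.24, adjusted p = 0.00141). Without replicate 1 of ZT5 the 11 became 6, and with DESeq2 17, beside 12.4% of all genes. In the same livers the median difference of 5 erythroid markers was 1.96 in RNA and 2.2 in footprints, with none called and overlapping sums (69.9 to 207 CPM of RNA at ZT5 and 99.6 to 251 CPM at ZT12), and the endothelial marker Clec4g fell in footprints (-0.65 ± 0.16, adjusted p = 0.0112). Their part in the members' differences was not tested. In RNA, with 5.15% of all genes called, Rpl23a rose from 27.7, 21.1 and 13.5 CPM to 41.7, 32.9 and 51.5 CPM (1.04 ± 0.22, adjusted p = 0.00232) and Rps3a1 fell from 80.3, 78.5 and 87.8 CPM to 45.8, 69 and 35.7 CPM (-0.70 ± 0.20, adjusted p = 0.0435). The Rpl23a call was lost without replicate 3 of ZT12 (adjusted p = 0.0592), and that of Rps3a1 without any of the 6 mice except replicate 2 of ZT12 (adjusted p = 0.0807 to 0.278).

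In Aco1+/+ livers no member passed the test in TE between the times (edgeR and DESeq2 both 0), beside 0.0187% of all genes called. An unadjusted p under 0.05 was found for 5 members (7.94%), all higher at ZT12, a share near the 7.49% of all genes over both directions. The median was 0.19 and 42 of 63 were positive, and 5 were higher in every ZT12 liver, beside 7.99% of all genes. The smallest p values were those of Rpl7 (0.60 ± 0.21, adjusted p = 0.44) and Rpl11 (0.60 ± 0.27, adjusted p = 0.631). In RNA, 7.05% of all genes were called and 1 member fell, Rpl15, from 25.5, 20.5 and 16.5 CPM to 14.1, 12.6 and 11.0 CPM (-0.75 ± 0.24, adjusted p = 0.0479). This call was lost without any of the 6 mice except replicate 3 of ZT5 (adjusted p = 0.0675 to 0.26) and under DESeq2 (adjusted p = 0.102). Erythroid markers in these livers summed to at least 199.9 CPM of RNA at ZT5 and at most 184.8 CPM at ZT12, and in footprints erythroid, cholangiocyte and Kupffer cell markers were also lower in every ZT12 liver. Their part in the members' differences was not tested. The median TE difference became -0.12 without replicate 2 of ZT12 and -0.03 without replicate 1 of ZT5, and was 0.35 and 0.31 without replicate 1 of ZT12 and replicate 2 of ZT5. In the footprints no member was called (edgeR and DESeq2 both 0), beside 6.64% of all genes, and 1 (1.59%) had an unadjusted p under 0.05, beside 20.7% of all genes. The lowest p values were those of Rps4x (0.60 ± 0.28, adjusted p = 0.234) and Rpl3 (0.56 ± 0.29, adjusted p = 0.293).

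Whether the time difference of the +/+ mice differed between the lines was tested in a fit of all 24 mice. Line cannot be told apart here from other differences between the 2 sets of mice, such as their sequencing runs. The difference in TE was larger in Ireb2+/+ than in Aco1+/+ livers for Rpl14 (1.92 ± 0.37, adjusted p = 0.0284), beside 0.0467% of all genes called. In Aco1+/+ mice Rpl14 had TE of -0.08, 0.06 and 0.00 at ZT5 and of -0.55, 0.22 and -0.10 at ZT12. The call was lost with all count columns summed (adjusted p = 0.0591), with libraries not paired by mouse (adjusted p = 0.498) and in 8 of the 12 fits that left out 1 of these mice (adjusted p = 0.0613 to 0.224), namely those without replicates 1 and 3 of ZT12 and 1 and 2 of ZT5 in Aco1+/+, and replicates 1 and 2 of ZT12 and 1 and 3 of ZT5 in Ireb2+/+. For the remaining members the difference between the lines did not pass the test, although 61 of 63 were positive, with a median of 1.31. The count of 1 called member was 8 without replicate 2 of Aco1+/+ at ZT12, 4 with only the 12 +/+ mice and 2 with the first sequencing run, beside 0.168%, 0.0841% and 0.0735% of all genes. Rpl14 included, 39 members had an unadjusted p under 0.05, beside 8.2% of all genes. In the -/- mice of the 2 lines the corresponding median was 0.20 and no member was called (edgeR and DESeq2 both 0), beside 0.00935% of all genes, and 5 (7.94%) had an unadjusted p under 0.05, beside 5.68% of all genes. The smallest p values there were those of Rpl6 (-1.49 ± 0.39, adjusted p = 0.311) and Rpl27 (-1.21 ± 0.48, adjusted p = 0.791).

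**Figure D4:**
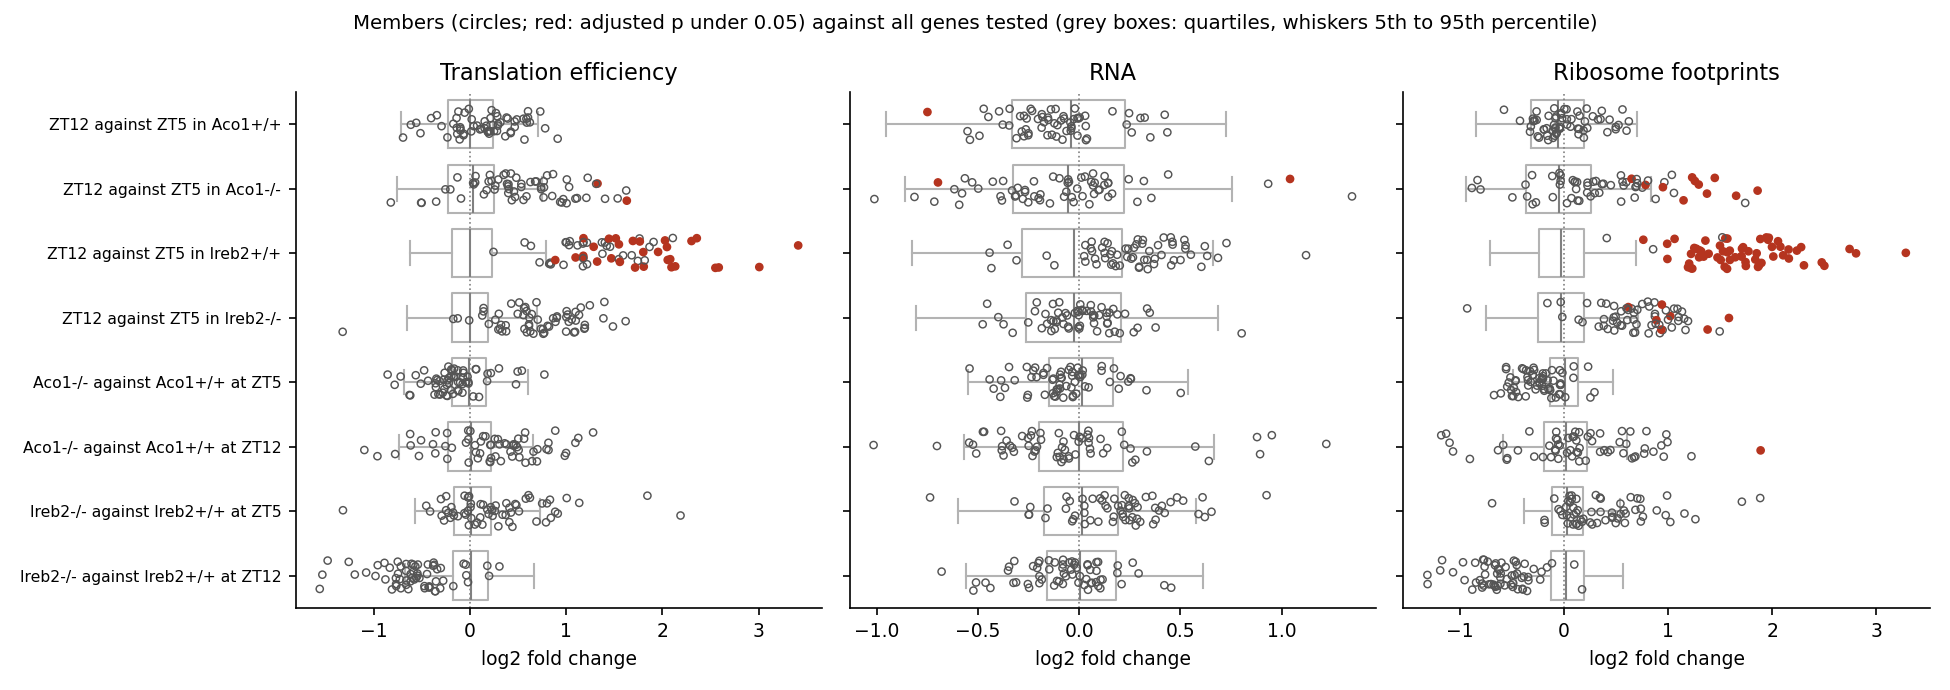
Fitted log2 differences of the 63 members (circles; red, adjusted p under 0.05) in TE, RNA and RPF for the time and genotype contrasts, with grey boxes for the quartiles and whiskers for the 5th to 95th percentile of all 10696 genes tested. In Ireb2+/+ livers 30 members in TE and 60 in RPF are red, and none in RNA.

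The genotype comparisons asked whether loss of either iron regulatory protein changed the translation of the members, and no member passed the test in TE at either time (edgeR and DESeq2 both 0 in all 4 comparisons). Between Ireb2-/- and Ireb2+/+ livers at ZT12 the median difference was -0.58 and 60 of 63 members were negative, while 0% of all genes were called. At an unadjusted p under 0.05 there were 23 members (36.5%), beside 3.56% of all genes. TE was lower in every Ireb2-/- liver for 27 of 63 members, beside 4.58% of all genes. A fit of only these 6 mice called 14 members, all lower in Ireb2-/-, beside 0.178% of all genes called. Hepatocyte markers were higher in every Ireb2-/- than in every Ireb2+/+ liver at ZT12. They summed to 136800 to 160800 against 116800 to 126400 CPM in RNA, and to 217000 to 250800 against 193400 to 211200 CPM in footprints. The other marker lists overlapped, and the part of these cells in the members' differences was not tested.

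At ZT5, the Ireb2 genotypes differed by a median of 0.20 in TE, while 0.00935% of all genes were called. At an unadjusted p under 0.05 there were 13 members (20.6%), beside 7.01% of all genes. Among the smallest p values was that of Rpl28 (2.19 ± 0.73, adjusted p = 0.599). TE was higher in every Ireb2-/- liver for 5 of 63 members, beside 5.84% of all genes. The median became -0.13 without replicate 1 of Ireb2+/+ and -0.03 without replicate 3 of Ireb2-/-, and 0.44 without replicate 3 of Ireb2+/+. At ZT5 the RNA of hepatocyte markers (127400 to 144500 against 103200 to 125900 CPM) and lymphoid markers (1.097 to 2.101 against 0.577 to 0.828 CPM) was higher in every Ireb2-/- liver. Their part in the members' differences was not tested. In the footprints 0.0654% of all genes were called at ZT5. At ZT12 0.0280% were. Footprints gave no called member at either time with edgeR. With DESeq2 there were 2 at ZT12 and 0 at ZT5. With edgeR 33 members had an unadjusted p under 0.05 at ZT12, beside 7.62% of all genes, and 13 at ZT5, beside 7.64%. Among the leading footprint differences were those of Rpl36 at ZT12 (-1.31 ± 0.32, adjusted p = 0.293), of Rpl27 at ZT5 (0.74 ± 0.20, adjusted p = 0.369) and Rpl24 at ZT5 (0.71 ± 0.20, adjusted p = 0.427).

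In the Aco1 line, the median TE difference of -/- from +/+ was -0.18 at ZT5, with 0.00935% of all genes called, and 0.26 at ZT12, with 0.0935% called. Leaving out 1 mouse moved it from -0.38 (without replicate 2 of Aco1-/-) to -0.02 (without replicate 1 of Aco1-/-) at ZT5, and from 0.03 (without replicate 3 of Aco1-/-) to 0.53 (without replicate 2 of Aco1+/+) at ZT12. At an unadjusted p under 0.05 there was 1 member (1.59%) at ZT5, beside 2.54% of all genes, and there were 11 (17.5%) at ZT12, beside 6.71%. TE was lower in every Aco1-/- liver for 3 of 63 members at ZT5, beside 4.76% of all genes, and higher for 6 at ZT12, beside 6.25%. Rps6 gave -0.62 ± 0.32 at ZT5 (adjusted p = 1) and 1.10 ± 0.29 at ZT12 (adjusted p = 0.185). At ZT12 it had TE of -0.08, 0.61 and 0.13 in Aco1+/+ and of 0.65, 1.78 and 1.30 in Aco1-/- livers, which did not overlap. Rpl37a at ZT12 (1.28 ± 0.34, adjusted p = 0.195) and Rpl38 at ZT5 (-0.78 ± 0.33, adjusted p = 1) were the others with the smallest p. In the footprints at ZT5 no member was called (edgeR and DESeq2 both 0), beside 0.00935% of all genes, and 1 (1.59%) had an unadjusted p under 0.05, beside 2.79% of all genes. Rpl38 (-0.54 ± 0.19) and Rps6 (-0.48 ± 0.25) had the smallest p (adjusted p = 1). In the footprints at ZT12, 0.299% of all genes were called, and Rpl10a, which had few counts, rose (1.89 ± 0.35, adjusted p = 0.028), a call lost without any of the 6 mice except replicate 3 of Aco1-/- (adjusted p = 0.0874 to 0.18), and with the first sequencing run (adjusted p = 0.307) and all count columns (adjusted p = 0.0602), which called no member. The count was 7 without that replicate, 4 with DESeq2 and 3 without a filter on low counts, beside 1.5%, 1.22% and 0.305% of all genes. In RNA, no member was called in the 4 genotype comparisons (edgeR and DESeq2 both 0). Over all genes 0% and 0.00935% were called in the Aco1 line at ZT5 and ZT12, and 0.00935% and 0.0187% in the Ireb2 line. At an unadjusted p under 0.05 there were 1 (1.59%) and 9 (14.3%) members in the Aco1 line, beside 3.73% and 7.66% of all genes. In the Ireb2 line there were 9 (14.3%) and 1 (1.59%), beside 5.64% and 4.21%. The members with the smallest p were Rpl15 (-0.54) and Rps15a (-0.42) at ZT5 and Rpl23a (0.88) and Rpl31 (-1.02) at ZT12 in the Aco1 line, and Rps27a (0.59) and Rps15 (0.37) at ZT5 and Rpl38 (-0.68) and Rpl7a (-0.46) at ZT12 in the Ireb2 line, with adjusted p from 0.385 to 1.

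Whether the genotype difference changed between the times was tested as an interaction, and no member passed in either line (edgeR and DESeq2 both 0). In the Ireb2 line the median interaction was -0.72, with 0% of all genes called, and it ran from -1.03 without replicate 3 to -0.39 without replicate 1 of Ireb2+/+ at ZT5. Of the members, 24 had an unadjusted p under 0.05, beside 5.25% of all genes. Members called in this line were 4 without replicate 3 and 2 without replicate 2 of Ireb2+/+ at ZT5, and 1 both without replicate 3 of Ireb2+/+ at ZT12 and without a filter on low counts, beside 0.0561%, 0.0374%, 0.00935% and 0.00802% of all genes. Rps26 (-1.67 ± 0.38, adjusted p = 0.267) was among those with the smallest p. In the Aco1 line the median was 0.40, with 0.0280% of all genes called, and it ran from 0.21 without replicate 1 of Aco1-/- at ZT5 to 0.72 without replicate 2 of Aco1+/+ at ZT12. Here 9 members (14.3%) had an unadjusted p under 0.05, beside 4.75% of all genes. Rps6 (1.72 ± 0.44, adjusted p = 0.277) and Rpl38 (1.20 ± 0.45, adjusted p = 0.974) led.

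Related gene lists were examined for the time difference in TE of Ireb2+/+ livers. Of the 7 ribosomal proteins whose symbols fall outside the rule, 2 rose, namely Rplp2 of the stalk (1.26, adjusted p = 1.9e-05) and Rpsa (2.40, adjusted p = 0.0179), and the median was 1.26. Of 15 other TOP mRNAs 4 rose, with a median of 1.09, beside 0.496% of all genes that rose. In the footprints 5 of the 7 and 10 of the 15 rose, with medians of 1.45 and 1.12, beside 3.63% of all genes. In TE these were Tpt1 (1.65, adjusted p = 1.9e-05), the initiation factor subunits Eif3f (1.09, adjusted p = 0.00553) and Eif3h (0.71, adjusted p = 0.0339), and the elongation factor Eef1g (1.31, adjusted p = 0.02). In TE no gene was called among 26 ribosome biogenesis genes (median 0.00), 20 genes of mTORC1 signalling and TOP binding (median 0.04), 76 mitochondrial ribosomal proteins (median 0.05) or 4 paralogs left out of the members (median 0.19). In the footprints the biogenesis genes Ncl (0.65, adjusted p = 0.00463) and Rrn3 (0.53, adjusted p = 0.0335) rose. The paralog Rpl22l1 also rose there (1.35, adjusted p = 0.00358), and the mitochondrial Mrpl27 fell (-0.53, adjusted p = 0.032), beside 7.53% of all genes called.

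Members with and without a pyrimidine run at an annotated start overlapped in this time difference. The 23 members with a run had a median TE difference of 1.18, from 0.25 to 3.41, and the 24 without had 1.64, from 0.57 to 2.55. With runs taken at full length, the medians were 1.25 in 26 members with a run and 1.75 in 21 without. Rpl26, without a run in its window, and Rpl14, with one, were both among the 4 members with the smallest adjusted p.

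Over the 24 livers, the TE of single members moved with that of the group. The Pearson correlation of a member with the median of the other members had a median of 0.78, with 57 of 63 above 0.5, from 0.95 for Rpl4 to -0.09 for Rpl19. Among 10633 other genes the median r with the members' median was -0.01, and 1.10% exceeded 0.5. The 5 most alike were Eef1a1 (r = 0.96), Eef1b2 (0.91), Rack1 (0.90), Eef2 (0.89) and Rplp0 (0.88), translation elongation factors and ribosomal proteins. These correlations are descriptions over livers that share groups and libraries.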

How the data were processed

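Frozen livers of 24 mice were homogenised in polysome buffer. Footprints were made with RNase I, and total RNA came from the same lysates. Per the labels, the authors trimmed reads with cutadapt 3.5, removed rRNA and tRNA reads with Bowtie2, and aligned the rest with STAR 2.70f (as the labels write it). They deposited raw counts per gene for each of 77 run files. The counting tool, strand setting and treatment of reads with several matches are not given in the sources used here. The files have no header: from the values, columns 2 to 4 were read as 5′ UTR, coding sequence and 3′ UTR.

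Here, coding counts were summed over runs (48 libraries) and scaled by upper-quartile factors. The total of coding counts sets the precision, and leaving out genes that failed edgeR's filterByExpr (minimum count 10, minimum total 15) left 10696. CPM and TE used a prior count of 0.5. Differences were tested per line (12 mice, 4 groups) with edgeR 4.0.16 quasi-likelihood tests in R 4.3.3, for RNA, for RPF and, with a mouse term, for RPF over RNA. P-values were adjusted by Benjamini-Hochberg over all genes, and called under 0.05. Errors are SE of the fit where a log2 difference is given and SD where a group is. Replicates were separate mice.

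On simulated counts for 10696 genes, the TE test of ZT12 against ZT5 in Ireb2+/+ recovered 29.2% of genes changed by 1 and 78.4% of those changed by 2 on the log2 scale. The simulation drew genes independently, with a fixed dispersion for each kind of library, and changed genes picked at random. The members had a median SD of TE of 0.72 over the livers, beside 0.39 for all genes tested, so these rates need not hold for them. Alternatives were TMM scaling, DESeq2 1.42.0, other filters, the first sequencing run alone, a replicate block, libraries not paired by mouse, only the mice compared, and each mouse left out. Summing all count columns, testing the time difference between the lines, and taking pyrimidine runs at full length, were added after seeing the data. Members and lists were chosen with earlier results of these data known. Named were the members with the 3 highest and 3 lowest mean TE, the 3 largest and 3 smallest SD, those called in a contrast (up to 4 in TE and 2 in RNA or RPF, by smallest adjusted p, or the 2 with the smallest p where none was), 10 set by role, and the 5 other genes most alike. Rpl13, Rpl28 and Rpl35 in Ireb2+/+, Rpl4 and the uncalled Rpl18 and Rpl19 were named after their values were seen. A planned ranking per kb of coding sequence and a correlation with coding length were not made, since no coding lengths were used here. Some members that the rule would name are not reported here.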

Additional observations from a re-analysis of the deposited data

Results flagged for a closer look

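The time difference in TE of Rpl14 was larger in Ireb2+/+ than in Aco1+/+ livers by 1.918 on the log2 scale. It was marked because the test of the difference between the lines itself passed its threshold. Rpl14 was higher at ZT12 in every Ireb2+/+ liver, whereas the Aco1+/+ livers of the 2 times overlapped. The adjusted p was 0.0591 with all count columns summed and 0.498 with libraries not paired by mouse, and 0.0613 to 0.224 in 8 of the 12 fits that left out 1 mouse.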

How the results depend on the processing

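The median TE difference of the members between ZT12 and ZT5 in Ireb2+/+ livers stayed positive in all alternatives, with 20 to 38 members called and a median of 1.37 to 1.46 in the alternatives that kept all mice, and 22 to 47 with a median of 1.13 to 1.69 when 1 mouse was left out. Footprints there gave 54 to 61 called members, and 50 to 60 with 1 mouse left out. Of 460 values of named members in alternatives that kept all mice, 429 kept their direction and side of the threshold.

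Members called in RNA between the times in Aco1+/+ livers were 0 with TMM scaling, with the first run, with the replicate block and with DESeq2, 2 with only the 6 mice compared and 3 with all columns, which gave 1 in Ireb2-/- livers. Members called in RPF between Aco1 genotypes at ZT12 were 3 without a filter, 0 with the first run and with all columns, and 4 with the replicate block and with DESeq2. DESeq2 called 2 members in RPF between Ireb2 genotypes at ZT12, 17 between the times in Aco1-/- and 24 in Ireb2-/- livers. The first run gave 1 in RPF in Aco1+/+ and 11 in Ireb2-/- livers, where the 6 mice compared gave 22. In TE between the times, Aco1-/- livers gave 4 without a filter, 0 with the first run and without pairing by mouse, 9 with all columns and 1 with the 6 mice. The 6 mice gave 17 in Ireb2-/- livers, and 14 between Ireb2 genotypes at ZT12. The difference between the lines gave 2 with the first run, 0 without pairing by mouse and 4 with the 12 mice compared, and the Ireb2 interaction 1 without a filter. With all columns the difference of the large from the small subunit was -0.0992, the RNA share of the members was 0.590%, and the RNA difference became 0.119 for Rpl38 between Ireb2 genotypes at ZT12. With pyrimidine runs at full length, 17.6% of all starts held one. The causes were not tested. Calls over all genes also moved with the fit. In TE between the times in Ireb2-/- livers, 0.383% of all genes were called with the 6 mice and 0.00935% with the whole line. Counts of members given in this section without a share of all genes therefore show only how the calls moved.

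The replicate numbers did not pair the mice: the correlation of same-numbered deviations ran from -0.134 to 0.258, and in 0 of 24 checks did all 3 pairs exceed 0.1. In 2 of them every number correlated best with its own. With the replicate block the TE calls between the times were 30 in Ireb2+/+ and 5 in Aco1-/- livers, those in RPF in Aco1-/- livers were 20, the difference between the lines gave 2 and the Ireb2 interaction 1.

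Leaving out 1 mouse moved the counts of members called as follows. In RNA they ran from 0 to 3 between Aco1 genotypes at ZT12 and between the times in Aco1+/+, and from 0 to 8 in Aco1-/- livers. In RPF they ran from 0 to 7 between Aco1 genotypes at ZT12, from 0 to 1 between Ireb2 genotypes at ZT12, from 6 to 16 between the times in Aco1-/- and from 0 to 16 in Ireb2-/- livers. In TE they ran from 0 to 3 between Aco1 genotypes at ZT12, from 0 to 6 between the times in Aco1-/-, from 0 to 2 in Ireb2-/-, from 0 to 4 in the Ireb2 interaction and from 0 to 8 in the difference between the lines. The median TE difference ran from 0.943 to 1.71 between the lines, from 0.336 to 0.732 between the times in Aco1-/- livers, from 0.0296 to 0.526 between Aco1 genotypes at ZT12 and from -0.382 to -0.0162 at ZT5, from -1.03 to -0.388 in the Ireb2 interaction and from 0.212 to 0.716 in the Aco1 interaction. It changed sign between the times in Aco1+/+ livers (-0.122 to 0.352) and between Ireb2 genotypes at ZT5 (-0.133 to 0.436). RNA counts limit TE: the median member had a mean of 67 RNA counts per library.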

Other observations

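The members' RNA reads were spread over the count columns unlike those of other genes. The column read as 5′ UTR held a median of 21.5% of the members' RNA counts per library, beside 4.96% over all genes. The coding column held 36.2%, beside 58.7%, and a column whose content the files do not name held 27.7%, beside 11.3%. In the footprint libraries the coding column held 86.4% of the members' counts, beside 94.5% over all genes.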
